A study of Mus musculus with 8 samples.

Results

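The mRNAs of the Serpina1 and Serpina3 protease inhibitor clusters were examined in mouse liver with and without RBFOX2, an RNA-binding protein that regulates alternative splicing. The genes were chosen by name, as the rows of the deposited table whose symbol is Serpina1a, Serpina1b, Serpina1c, Serpina1d, Serpina1e, Serpina3c, Serpina3k, Serpina3m or Serpina3n. All 9 were found among the 46078 gene identifiers of the table, 5 in the Serpina1 cluster and 4 in the Serpina3 cluster. Poly(A) RNA was sequenced from whole liver of 4 LWT mice (Alb_cre- Rbfox2 LoxP/LoxP) and 4 LΔRbfox2 mice (Alb_cre+ Rbfox2 LoxP/LoxP), with 1 library per liver. Both genotypes carried the floxed Rbfox2 alleles, and the Cre recombinase was driven by the albumin promoter, which is active in hepatocytes. The cross was made to inactivate Rbfox2 in hepatocytes, and the state of the gene in other liver cells was not measured here. The study used male mice that entered the diet groups at 8 weeks of age, and the livers were taken after a 16 h fast. Both genotypes received the control diet, which the sample annotations also call chow, for 12 weeks by those annotations and for 16 to 22 weeks by the study's methods.

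Serpins are suicide inhibitors: a protease cuts an exposed reactive-centre loop, and the inhibitor then changes shape and traps the enzyme. Serpina1 encodes alpha-1 antitrypsin, a plasma inhibitor of neutrophil elastase that hepatocytes secrete in large amounts, and Serpina3 corresponds to alpha-1 antichymotrypsin, an inhibitor of chymotrypsin-like proteases. Humans have a single gene for each, whereas the mouse has a cluster of similar copies whose loops, and so whose target proteases, have diverged.

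The 9 genes lie in 686 kb at chr12:103728156-104414329 (GRCm38), with 26 other annotated genes between the first and the last, 12 of them pseudogenes. Serpina1b, Serpina1d, Serpina1a, Serpina1c and Serpina1e come first and are read from the minus strand, with Serpina1d inside the annotated span of Serpina1b. Serpina3c is also on the minus strand, and Serpina3k, Serpina3m and Serpina3n end the region on the plus strand. The copies of the Serpina1 cluster shared 96.3% to 98.5% of aligned coding bases in GENCODE M21, those of the Serpina3 cluster 83.5% to 92.0%, and a Serpina1 and a Serpina3 copy 62.1% to 64.1%.

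**Figure D1:**
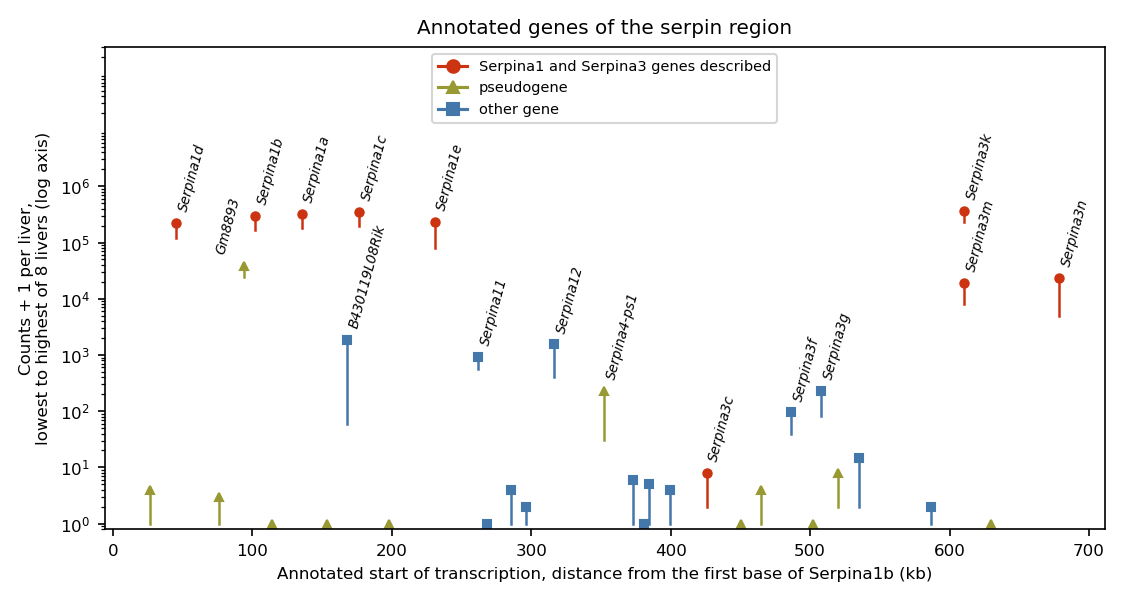
Counts of each annotated gene of the region (y axis, counts + 1 on a log axis, a line from the lowest to the highest of 8 livers with the symbol at the highest) against the distance of its annotated start from the first base of the region, which is the lowest coordinate of Serpina1b and its 3′ end (x axis, kb). Of the 9 genes described, 8 lie between 4964 and 365435 counts in every liver, and Serpina3c lies at 1 to 7, among the silent neighbours.

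The reactive-centre loop is where the copies differ most in what they can inhibit, so the 20 codons that encode it, starting at the conserved hinge, are shown for each gene from GENCODE M21 transcripts. Capitals mark bases that differ from the base held by most copies of the cluster, or positions where no base is held by most copies.
Serpina1a: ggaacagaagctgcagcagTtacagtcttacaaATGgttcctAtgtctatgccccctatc
Serpina1b: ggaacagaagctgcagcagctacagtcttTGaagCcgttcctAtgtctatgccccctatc
Serpina1c: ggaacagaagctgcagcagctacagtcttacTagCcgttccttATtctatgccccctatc
Serpina1d: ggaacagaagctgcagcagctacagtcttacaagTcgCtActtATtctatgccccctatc
Serpina1e: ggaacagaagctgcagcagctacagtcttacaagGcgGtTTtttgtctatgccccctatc
Serpina3c: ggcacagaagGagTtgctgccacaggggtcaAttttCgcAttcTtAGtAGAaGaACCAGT
Serpina3k: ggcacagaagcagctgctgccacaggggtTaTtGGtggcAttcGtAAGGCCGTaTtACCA
Serpina3m: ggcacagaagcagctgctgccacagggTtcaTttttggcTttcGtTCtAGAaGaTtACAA
Serpina3n: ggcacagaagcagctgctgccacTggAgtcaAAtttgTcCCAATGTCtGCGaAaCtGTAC
Each Serpina1 copy carried 4 or 5 such bases of 60, in the middle of the stretch, and each Serpina3 copy 15 to 22, nearly all toward its end. Over the whole transcript, many reads of 100 bases would match several Serpina1 copies. Of the 100-base windows of the main transcript, 80.0% in Serpina1a and 84.9% in Serpina1c had at most 2 mismatches to another gene of the region, against 48.3% in Serpina1b, 51.6% in Serpina1d and 51.6% in Serpina1e. In the Serpina3 cluster the share was 19.9% in Serpina3m, 13.8% in Serpina3k, 3.87% in Serpina3n and 1.99% in Serpina3c. Fewer 100-base stretches were found exactly in another gene, at 42.8% in Serpina1a and 58.5% in Serpina1c. This exact share was 14.8% in Serpina1b, 29.3% in Serpina1d and 14.4% in Serpina1e. How the authors' counting treated reads that match several genes was not given in the sources used here, so the split of counts among Serpina1 copies, above all between Serpina1a and Serpina1c, is uncertain. Serpina3m also shares its annotated start with Serpina3k.

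**Figure D2:**
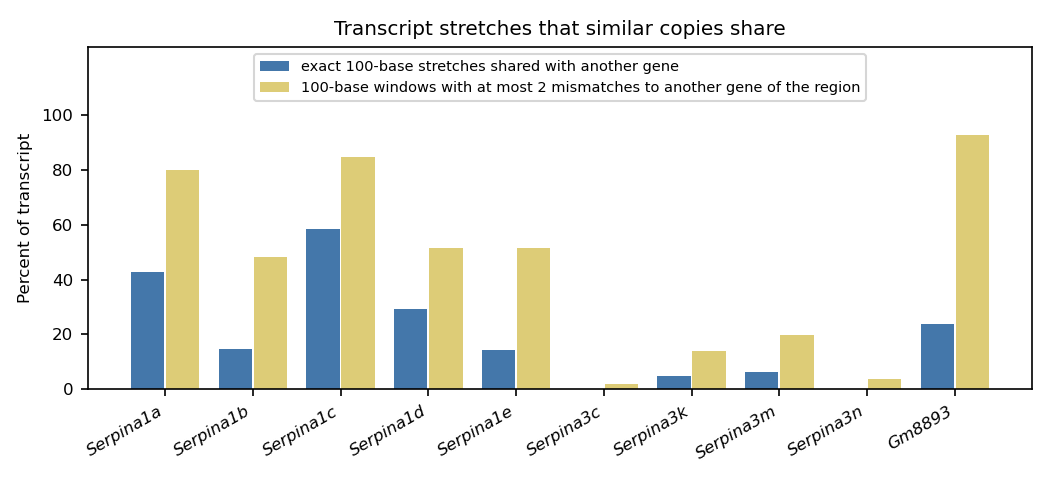
Percent of each gene's transcript stretches (y axis) that match another gene, as exact 100-base stretches found in any other annotated gene (blue) and as 100-base windows with at most 2 mismatches to another gene of the region (yellow). Serpina1a, Serpina1c and the pseudogene Gm8893 are at 80.0% or more by the second measure, and Serpina3c and Serpina3n are under 4% by both.

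Promoters were compared because the copies of the Serpina1 cluster were expressed at similar levels and Serpina3c and Serpina3n were not. RefSeq promoters on GRCm38.p6, from 250 bases before to 50 bases after the RefSeq start, matched 7 of the 9 genes, all except Serpina3k and Serpina3m. RefSeq starts can differ from those of GENCODE M21, which gave the positions above. GENCODE M21 starts Serpina1b at 103830373 and Serpina1e at 103958975, outside their RefSeq promoters. The RefSeq promoter of Serpina1b was chr12:103738140-103738439, minus strand. Printed for the Serpina1 cluster are Serpina1c (chr12:103904901-103905200, minus strand), which had the highest level, and Serpina1e (chr12:103956848-103957147, minus strand), which varied most, with GTTAAT, a half-site of the hepatocyte factor HNF1, in capitals.
Serpina1c: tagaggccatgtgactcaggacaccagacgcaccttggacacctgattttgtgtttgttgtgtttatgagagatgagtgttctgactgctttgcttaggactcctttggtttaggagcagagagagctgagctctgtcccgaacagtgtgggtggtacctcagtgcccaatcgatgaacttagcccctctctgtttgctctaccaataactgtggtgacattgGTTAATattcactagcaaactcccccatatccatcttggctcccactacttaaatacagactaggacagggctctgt
Serpina1e: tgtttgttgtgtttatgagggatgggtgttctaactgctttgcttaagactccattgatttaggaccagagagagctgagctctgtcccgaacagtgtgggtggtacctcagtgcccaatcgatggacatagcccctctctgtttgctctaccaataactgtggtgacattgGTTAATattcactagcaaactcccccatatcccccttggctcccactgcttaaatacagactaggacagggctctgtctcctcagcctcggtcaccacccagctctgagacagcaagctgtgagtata
All 5 Serpina1 promoters and that of Serpina3c held GTTAAT, searched on both strands, which 7.10% of 32851 promoters of this length hold. The 5 Serpina1 promoters were identical to each other at 91.7% to 98.4% of aligned bases. Letters that these near copies share are therefore not 5 separate observations. In the Serpina1 cluster the first base of GTTAAT was at -27 in Serpina1c, -26 in Serpina1b, -21 in Serpina1a and -16 in Serpina1d. It was at -78 in Serpina1e, whose RefSeq start lies farther downstream relative to the same sequence. The C/EBP letters TTGCNNAA were found in Serpina1a, Serpina1b, Serpina1d and Serpina1e and in 10.8% of all promoters. Their first base was at -161 in Serpina1b, -149 in Serpina1d and -211 in Serpina1e. In Serpina1a it was at 24, past the start and so at a different place. The STAT letters TTCNNNGAA were in 0 of the 7 promoters and in 8.30% of all.

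The second pair is Serpina3c (chr12:104153823-104154122, minus strand) and Serpina3n (chr12:104406458-104406757, plus strand), with capitals at bases that differ or have no partner in the alignment.
Serpina3c: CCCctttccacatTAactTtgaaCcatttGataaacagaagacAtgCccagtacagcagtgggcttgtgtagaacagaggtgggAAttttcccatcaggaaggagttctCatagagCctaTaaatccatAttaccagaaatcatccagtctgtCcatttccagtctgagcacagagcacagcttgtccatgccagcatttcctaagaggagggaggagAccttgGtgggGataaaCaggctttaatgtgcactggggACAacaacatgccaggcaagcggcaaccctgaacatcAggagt
Serpina3n: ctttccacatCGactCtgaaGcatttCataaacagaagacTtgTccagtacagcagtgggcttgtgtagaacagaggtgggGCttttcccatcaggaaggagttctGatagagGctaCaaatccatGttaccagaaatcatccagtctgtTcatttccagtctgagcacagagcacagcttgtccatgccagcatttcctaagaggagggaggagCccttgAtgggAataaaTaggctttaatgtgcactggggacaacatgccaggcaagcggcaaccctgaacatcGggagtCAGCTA
These promoters were identical at 275 of 294 aligned bases (93.5%), with 25 bases in capitals in each. Serpina3c nevertheless had 1 to 7 counts per liver and Serpina3n 4964 to 23056.

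The libraries held 37482458 to 56177588 counts (median 42589090), so that 3 counts, taken as the floor of detection, correspond to 0.053 to 0.080 CPM, counts per 1000000 counts of the library. Rbfox2 had 653, 518, 549 and 794 counts in LWT livers 1 to 4 and 202, 390, 77 and 103 in LΔRbfox2 livers 1 to 4, with no overlap between genotypes. TMM factors scale each library by a trimmed mean of the log ratios of its genes to a reference library. LΔRbfox2 livers 3 and 4 had TMM factors of 0.724 and 0.776, against 1.02 to 1.14 in the other livers. Their 20 most abundant genes took 49.6% and 44.7% of counts, against 43.7% in LWT liver 1 and 31.2% to 36.1% in the rest. On the first principal component, which held 54.1% of the variance, LΔRbfox2 livers 3 and 4 lay at 46.7 and 56.02, and LWT livers 1 and 4 lay about as far to the other side, at -59.4 and -54.6. LWT livers 2 and 3 lay at 27.4 and 3.96 and LΔRbfox2 livers 1 and 2 at 15.8 and -35.9, so the genotypes overlapped. Of 13856 genes tested, 0 (0%) passed an adjusted p of at most 0.05 in edgeR's quasi-likelihood test and 1356 (9.79%) had an unadjusted p under 0.05, of which 1102 (7.95%) were higher and 254 (1.83%) lower in LΔRbfox2. DESeq2 called 10 genes and limma-voom 0. In 317 genes (2.29%) all 4 livers of a genotype lay above all those of the other. Hepatocyte markers were abundant in every liver, whereas B cell, T cell, neutrophil and pancreas acinar markers each summed to under 2 CPM.

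Summed over its 5 copies, the Serpina1 cluster took 2.22%, 2.51%, 2.94% and 2.83% of all counts in LWT livers 1 to 4 and 2.88%, 2.48%, 2.38% and 2.29% in LΔRbfox2 livers 1 to 4. The Serpina3 cluster took 0.705%, 0.768%, 0.784% and 0.790% in LWT and 0.860%, 0.711%, 0.549% and 0.652% in LΔRbfox2. The genotypes overlapped for both sums. Per kilobase of exon and after TMM scaling (RPKM), the order of mean levels over the 8 livers was Serpina1c at 4838, Serpina1a at 3364, Serpina3k at 3223, Serpina1d at 2795, Serpina1e at 2328, Serpina1b at 2218, Serpina3m at 190, Serpina3n at 137 and Serpina3c at 0.037. This order depends on the annotated exon length, which was 1361 bases in Serpina1c and 2415 in Serpina1b. In CPM, the mean of Serpina1b was above that of Serpina1d, at 5056 against 3631 in LWT and 5657 against 4162 in LΔRbfox2. Shared reads also leave the order of Serpina1a and Serpina1c uncertain. The RPKM of Serpina1c was above that of Serpina1a in 8 of 8 livers, that of Serpina1b above Serpina3m in 8 of 8 and that of Serpina3n above Serpina3c in 8 of 8. The remaining neighbours changed places in 1 to 4 of 8 livers, and their ranges overlapped.

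**Figure D3:**
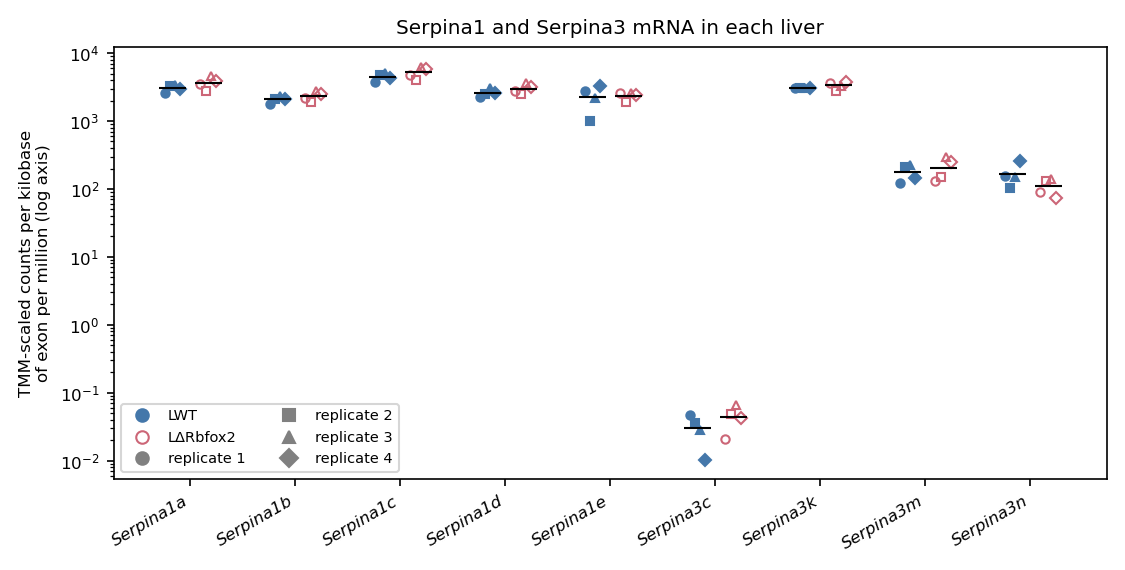
TMM-scaled level per kilobase of exon (RPKM, y axis, log axis) of the 9 genes in each LWT liver (filled) and LΔRbfox2 liver (open), with the genotype mean as a line. The Serpina1 copies and Serpina3k lie between 999 and 6322, Serpina3m and Serpina3n between 74.4 and 293.4, and Serpina3c under 0.07.

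None of the 9 genes passed the test between genotypes. Of the 9, 8 had enough counts to be tested, and 0 had an adjusted p of at most 0.05 in edgeR, beside 0% of all genes. None had an unadjusted p under 0.05 either, beside 9.79% of all genes, and none had genotypes without overlap, beside 2.29%. DESeq2 and limma-voom also called 0 of them. The log2 fold change, LΔRbfox2 over LWT, was above 0 for 7 of 8 with a median of 0.18, where 6710 of all 13856 genes were above 0 and the median was -0.015. With library totals alone it was below 0 for 7 of the 8, all except Serpina1a. Hepatocyte markers lay on the same side under TMM scaling, with 5 of 5 tested above 0, a median of 0.35 and 0 under an unadjusted p of 0.05: the log2 fold change was 0.25 for Alb, 0.35 for Ttr, 0.36 for Apoa1, 0.30 for Apoa2 and 0.51 for Fabp1. With library totals alone, the mean CPM of each marker was still higher in LΔRbfox2, unlike that of 7 of the 8 serpin genes. In LWT and LΔRbfox2 it was 43508 and 43901 for Alb, 2718 and 2838 for Ttr, and 5915 and 6298 for Apoa1. For Apoa2 it was 3616 and 3683, and for Fabp1 1992 and 2293. The part of these markers in the serpin values was not tested. In whole liver, fewer cells of a type and less RNA per cell cannot be told apart. In counts simulated gene by gene at these depths and each gene's spread, edgeR recovered 9 of 200 genes with a log2 change of 1. At a change of 2 it recovered 177 of 200, and DESeq2 recovered 82 and 183 with 24 and 36 false calls. So edgeR mostly missed a change of 1 in genes drawn from all those tested. The simulation had no variation shared between genes. The SD of log2 CPM within a genotype had a median of 0.25 in the 8 tested serpin genes and 0.39 in all genes. Detection in the 8 genes themselves was not simulated.

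Serpina1a encodes a copy of alpha-1 antitrypsin. Its TMM-scaled level was 4677, 5919, 6279 and 5398 CPM in LWT livers 1 to 4 and 6348, 5103, 8367 and 7210 CPM in LΔRbfox2 livers 1 to 4. LΔRbfox2 livers 3 and 4, the pair with low TMM factors, were highest, and the other LΔRbfox2 livers lay within or next to the LWT range. The log2 fold change was 0.28 (SE 0.21 from limma-voom, 95% interval -0.19 to 0.73, edgeR adjusted p = 0.600), and it was 0.0091 when libraries were scaled by their totals alone.

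Serpina1c, which shares most of its transcript with Serpina1a, had 5102, 6463, 6852 and 5757 CPM in LWT and 6493, 5394, 8604 and 8006 CPM in LΔRbfox2. Serpina1b had 4370, 5139, 5631 and 5085 CPM in LWT and 5201, 4647, 6777 and 6003 CPM in LΔRbfox2. Serpina1d had 3139, 3515, 4275 and 3594 CPM in LWT and 3816, 3446, 4999 and 4388 CPM in LΔRbfox2. In all 3 genes LΔRbfox2 liver 3 was highest and LWT liver 1 lowest, the same livers as for Serpina1a, and these livers lay far out on opposite sides of the first principal component. The edgeR log2 fold changes were 0.24 for Serpina1c, 0.16 for Serpina1b and 0.20 for Serpina1d, with adjusted p of 0.645, 0.714 and 0.667. Without LWT liver 1 they were 0.14, 0.071 and 0.11, and that of Serpina1a was 0.18. Scaled by library totals alone they fell below 0, to -0.035, -0.10 and -0.064, and without LΔRbfox2 livers 3 and 4 to -0.051, -0.063 and -0.025. Library totals alone also moved the median of all genes to -0.23, from -0.015.

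These 4 copies kept nearly constant proportions to each other. The count of Serpina1a relative to Serpina1c ranged from 0.90 to 0.98 over the 8 livers, that of Serpina1b from 0.75 to 0.88 and that of Serpina1d from 0.54 to 0.64. How reads shared by these copies were counted was not given, and the part of shared reads in the narrow ranges was not tested.

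Serpina1e did not keep to these proportions. It had 4429, 1616, 3536 and 5273 CPM in LWT and 4141, 3113, 4136 and 3871 CPM in LΔRbfox2. LWT livers 2 and 4 were the lowest and the highest of all 8, and every LΔRbfox2 liver fell between them. Relative to Serpina1c its count ran from 0.25 in LWT liver 2 to 0.92 in LWT liver 4, a 3.66-fold range, and its share of the Serpina1 sum ran from 7.13% to 21.0%. The edgeR log2 fold change was 0.039 (adjusted p = 0.963), and limma-voom gave 0.16 with an SE of 0.34. The edgeR value turned to -0.20 without LWT liver 2 and to -0.035 without LΔRbfox2 liver 3. It was -0.044 without LΔRbfox2 livers 3 and 4 and -0.19 with library totals alone.

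**Figure D4:**
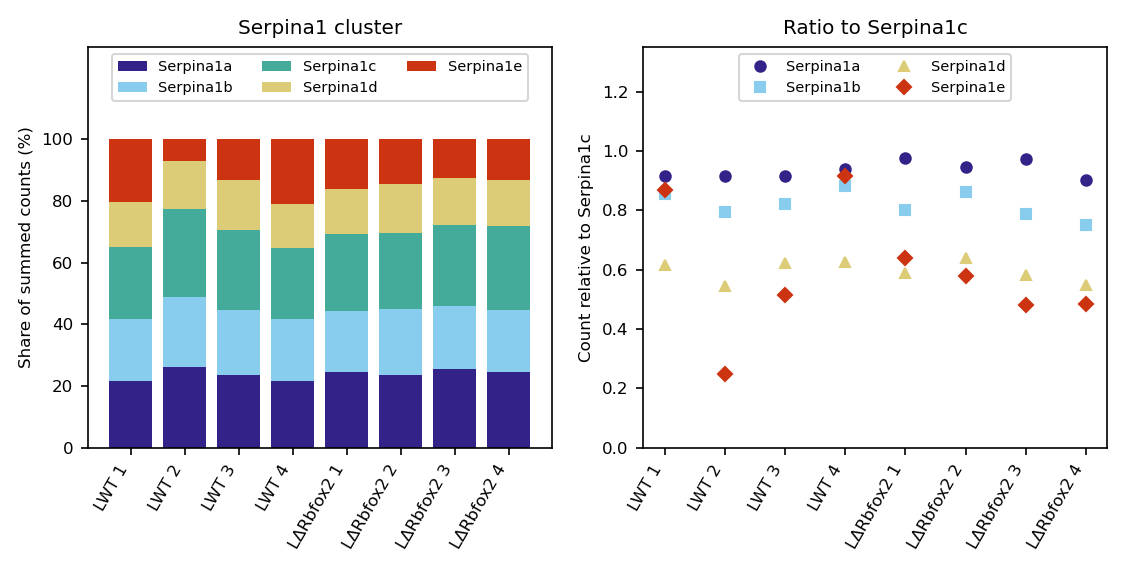
Left, share of the summed Serpina1 counts (y axis, %) taken by each copy in each liver. Right, count of each copy relative to Serpina1c (y axis) in the same livers: Serpina1e ranges from 0.25 to 0.92, and Serpina1a, Serpina1b and Serpina1d each keep within a highest-to-lowest ratio of 1.09 to 1.18.

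Serpina3k, known as contrapsin, made up 88.9% to 94.7% of the Serpina3 counts. It had 6367, 6359, 6396 and 6243 CPM in LWT and 7344, 5703, 6799 and 7832 CPM in LΔRbfox2. The LWT livers agreed closely and lay inside the LΔRbfox2 range, which extended to both sides of them. The log2 fold change was 0.13 (95% interval -0.27 to 0.50, edgeR adjusted p = 0.753), and -0.11 with library totals alone.

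Serpina3m had 212, 358, 391 and 246 CPM in LWT and 226, 259, 504 and 423 CPM in LΔRbfox2. LΔRbfox2 livers 3 and 4 were highest, and the other LΔRbfox2 livers were among the lowest. The edgeR log2 fold change of 0.23 (adjusted p = 0.737) was -0.026 without LΔRbfox2 liver 3, -0.35 without LΔRbfox2 livers 3 and 4 and -0.094 with library totals alone.

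Serpina3n, an inhibitor of granzyme B and other proteases whose mRNA rises in the acute phase, was under TMM scaling the only tested gene of the 9 with a lower LΔRbfox2 mean, whereas with library totals alone 7 of the 8 tested had one. It had 318, 211, 304 and 531 CPM in LWT and 189, 273, 285 and 154 CPM in LΔRbfox2. LWT liver 4 was highest and LΔRbfox2 livers 4 and 1 were lowest, but LWT liver 2 lay below LΔRbfox2 livers 2 and 3, so the genotypes overlapped. The mean was 341 ± 135 CPM in LWT and 225 ± 64.2 CPM in LΔRbfox2 (SD, n = 4). The log2 fold change was -0.60 (SE 0.30, 95% interval -1.24 to 0.11) with an edgeR adjusted p of 0.521, and the exact two-sided permutation test over livers gave p = 0.143, where the smallest p this design allows is 0.0286. Its sign was kept under all 18 alternatives, between -0.82 with library totals alone and -0.30 without LWT liver 4. LWT liver 4 was also highest for the acute-phase mRNAs Saa2, with 454 CPM against 1.62 to 36.7 CPM in the other livers, and Lcn2, with 42.5 CPM against 1.06 to 3.37 CPM. Of the other acute-phase mRNAs named below, Hp was highest in this liver too. Orm1 and Hpx were highest in LΔRbfox2 livers 4 and 1, and Fga and Fgg in LWT liver 3. The part of these acute-phase levels in the Serpina3n difference was not tested.

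**Figure D5:**
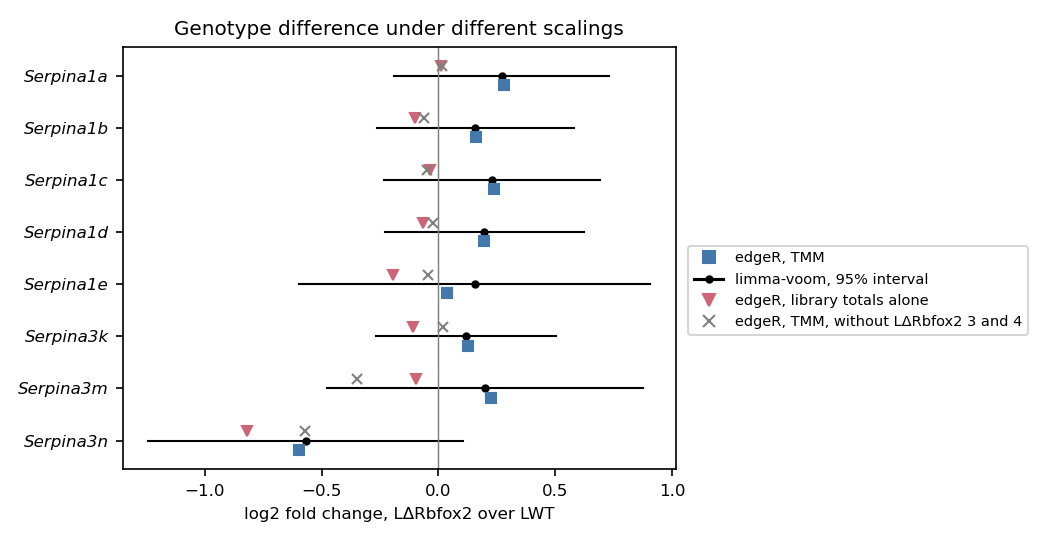
Log2 fold change, LΔRbfox2 over LWT (x axis), of the 8 genes tested, from edgeR with TMM scaling (squares), limma-voom with its 95% interval (dots and lines), edgeR with library totals alone (triangles) and edgeR without LΔRbfox2 livers 3 and 4 (crosses). Every interval spans 0. Serpina3n is below 0 under all 4, from -0.82 to -0.57, and the other genes lie near 0 or change sign with the scaling, apart from Serpina1a.

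Serpina3c had 4, 4, 3 and 1 counts in LWT livers 1 to 4 and 2, 7, 5 and 3 in LΔRbfox2 livers 1 to 4. These counts are at or near the floor of 3, so no fold change was taken, and the gene was not tested.

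The pseudogene Gm8893 lies within the annotated span of Serpina1b and had 26754, 27232, 24874 and 28254 counts in LWT and 24725, 38666, 38164 and 36308 counts in LΔRbfox2. That was 1.95% to 3.81% of the Serpina1 sum. Of its 100-base windows 89.9% were within 2 mismatches of Serpina1a, and 205 of its 1143 stretches of 100 bases were found exactly in Serpina1a. The counts of Gm8893 and Serpina1a therefore cannot be fully told apart. Its log2 fold change was 0.50 (edgeR adjusted p = 0.527) and -0.063 without LΔRbfox2 livers 3 and 4. The other Serpina1-side pseudogenes had 0 to 3 counts. B430119L08Rik, annotated antisense to Serpina1c, had 58 to 1852 counts, which is 0.017% to 0.651% of Serpina1c. Its exons overlap 429 of the 1361 exon bases of Serpina1c. Whether counting used strand was not given, and the part of this overlap in the Serpina1c counts was not tested.

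Among the other genes with a Serpina symbol, 8 of 17 were tested, and 0 had an unadjusted p under 0.05 (median log2 fold change 0.15). The most abundant were Serpina10, which encodes the protein Z-dependent inhibitor of coagulation factor X, at 99.96 ± 21.3 CPM in LWT and 124 ± 42.5 CPM in LΔRbfox2, and Serpina6, corticosteroid-binding globulin, at 80.1 ± 27.7 and 91.2 ± 32.2 CPM (SD, n = 4). Serpina11 and Serpina12, the latter encoding vaspin, had log2 fold changes of 0.12 and 0.80. Serpina3f and Serpina3g, which lie between Serpina3c and Serpina3k, had 39 to 94 and 81 to 230 counts. Of 12 serpins without a Serpina symbol, 1 had an unadjusted p under 0.05, near the 9.79% of all genes (median log2 fold change 0.15). This was Serpinb1a, an intracellular inhibitor of neutrophil proteases, with 5.87, 6.06, 4.24 and 3.64 CPM in LWT and 6.69, 14.5, 27.3 and 6.56 CPM in LΔRbfox2. The genotypes did not overlap, as in 2.29% of all genes. The edgeR log2 fold change was 1.47 (adjusted p = 0.504) and 0.88 without LΔRbfox2 liver 3, and limma-voom gave 1.25 with an SE of 0.45. The most abundant of this list had log2 fold changes of -0.18 (Agt, angiotensinogen), 0.21 (Serpinf1), -0.065 (Serpinf2, antiplasmin) and -0.060 (Serping1, the C1 inhibitor).

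Of the plasma protease inhibitors that are not serpins, 0 of 14 were under an unadjusted p of 0.05, with a median log2 fold change of 0.041. Mug1, an alpha-2-macroglobulin relative, had 3839 ± 1542 CPM in LWT and 3196 ± 568 CPM in LΔRbfox2, and Ambp, the precursor of bikunin, 999 ± 155 and 1292 ± 318 CPM (SD, n = 4). Kng1, kininogen, and Ahsg, fetuin-A, had log2 fold changes of 0.36 and 0.18. Of the target proteases, F2 (prothrombin) and F11 were tested, with log2 fold changes of 0.12 and -0.30 and adjusted p of 0.771 and 0.627 in edgeR, and Elane, the elastase that alpha-1 antitrypsin inhibits, had 0 to 4 counts.

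Of 15 regulators of serpin transcription, 1 was higher and 2 were lower at an unadjusted p under 0.05, beside 7.95% and 1.83% of all genes. None passed the adjusted threshold, and the median log2 fold change was -0.23. Cebpb, a C/EBP factor of the acute-phase response, was 89.8 ± 19.3 CPM in LWT and 57.5 ± 12.1 CPM in LΔRbfox2 (SD, n = 4), a log2 fold change of -0.64 (SE 0.21, edgeR adjusted p = 0.504). Stat3, which carries interleukin-6 signals, was 55.9 ± 18.5 and 35.2 ± 8.25 CPM, a log2 fold change of -0.67. Bcl6, a repressor, was 5.45 ± 3.34 and 15.1 ± 11.2 CPM, a log2 fold change of 1.48 in which LΔRbfox2 livers 1 and 2 alone exceeded the LWT range. Hnf4a, Cebpa and Ghr, the growth hormone receptor, had log2 fold changes of -0.23, -0.28 and 0.19.

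In the secretory pathway of alpha-1 antitrypsin, 1 of 9 genes was under an unadjusted p of 0.05, near the 9.79% of all genes, and the median log2 fold change was -0.084. Edem1, which directs misfolded glycoproteins to degradation, was 95.5, 76.7, 90.5 and 88.3 CPM in LWT and 64.1, 67.2, 73.8 and 72.9 CPM in LΔRbfox2, with no overlap, as in 2.29% of all genes, and a log2 fold change of -0.34 (SE 0.15, edgeR adjusted p = 0.504). The chaperones Calr and Hspa5 had log2 fold changes of -0.058 and -0.10, and the cargo-transport genes Mcfd2 and Surf4 of 0.42 and -0.067. Among 15 acute-phase genes, 1 was higher and 2 were lower at that level, beside 7.95% and 1.83% of all genes, and the median log2 fold change was -0.036. Orm1, orosomucoid, was 291 ± 56.6 CPM in LWT and 497 ± 187 CPM in LΔRbfox2 (SD, n = 4), a log2 fold change of 0.77. The lower pair, Saa2 and Lcn2, had log2 fold changes of -3.36 and -2.34, which became -0.30 and 0.19 without LWT liver 4. The abundant Hp, Hpx, Fga and Fgg had -0.15, 0.13, -0.066 and 0.12.

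No marker of another cell type passed the adjusted threshold in edgeR. At an unadjusted p under 0.05, 2 of 6 Kupffer cell markers were lower in LΔRbfox2, beside 1.83% of all genes, with summed levels of 62.6 to 108 CPM in LWT and 36.2 to 69.9 CPM in LΔRbfox2, and 3 of 4 erythroid markers were higher, beside 7.95%, with 329 to 593 CPM and 534 to 1159 CPM. At the same level 0 of 5 sinusoidal endothelial, 0 of 6 stellate and 0 of 3 tested cholangiocyte markers passed in either direction. Their part in the values above was not tested.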

How the data were processed

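Liver RNA of 8 mice was sequenced as 100-base paired-end reads after poly(A) enrichment. The authors aligned reads to GRCm38 with TopHat2 2.0.11 and counted them by gene (featureCounts). The deposited counts are raw whole numbers. The version, strand and multi-mapping settings of featureCounts were not given in the sources used here. Gene symbols were taken from GENCODE M21, which matched 45229 of 46078 identifiers. Genes passing edgeR's filterByExpr (minimum count 10, minimum total 15) were tested with TMM factors and edgeR 4.0.16 quasi-likelihood fits (R 4.3.3), genotype as the sole term and Benjamini-Hochberg adjustment over all 13856 genes. Standard errors and 95% intervals came from limma-voom 3.58.1, and DESeq2 1.42.0 was an alternative. Exact permutation tests used scipy 1.17.1. The edgeR, limma-voom and DESeq2 fits were tested on simulated counts with 200 changed genes. The closest replicates differed by a chi-square of 106 per degree of freedom, far above sampling noise. Separate litters or cages of the mice were not given in the sources used here, so p-values measure the spread between these livers.

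The text names all 9 genes, Rbfox2, and from each gene list those with an unadjusted p under 0.05 and the 4 most abundant per length among those tested. The genes and lists were chosen with earlier results of these data known. Replicate numbers did not pair the livers (correlations 0.13, -0.61, 0.12 and -0.51). Alternatives covered the test, scaling, filter, dispersion, block, threshold and each liver left out. Leaving out both livers with a TMM factor under 0.8 was chosen after seeing the data.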

Additional observations from a re-analysis of the deposited data

How the results depend on the processing

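No alternative called any of the 9 genes. Over all genes, DESeq2 called 10 where edgeR called 0, and each of the other alternatives called 0. Of 144 alternative values for the 8 tested genes, 130 kept their direction and 14 reversed. With library totals alone the log2 fold changes reversed to -0.10 for Serpina1b, -0.035 for Serpina1c, -0.064 for Serpina1d, -0.19 for Serpina1e, -0.11 for Serpina3k, -0.094 for Serpina3m, -0.059 for Serpina6, -0.12 for Serpina11, -0.032 for Serpinf1, -0.057 for Ahsg, -0.12 for F2, -0.11 for Ghr, -0.12 for Hpx and -0.14 for Fgg. Without both livers with a TMM factor under 0.8 they reversed to -0.063 for Serpina1b, -0.051 for Serpina1c, -0.025 for Serpina1d, -0.044 for Serpina1e, -0.35 for Serpina3m, -0.063 for Gm8893, -0.044 for Serpina10, -0.0045 for Serpina11, -0.22 for Serpina12, -0.0012 for F2, -0.27 for Ghr, -0.025 for Hpx and -0.15 for Fgg, and 171 genes had an unadjusted p under 0.05 in place of 1356. The cause was not tested. Leaving out each liver in turn, the log2 fold change ranged from -0.20 to 0.26 for Serpina1e, -0.026 to 0.39 for Serpina3m, -0.76 to -0.30 for Serpina3n, -0.058 to 0.39 for Serpina6, -0.20 to 0.036 for Serpinf2, -0.44 to 0.010 for F11, -0.0010 to 0.36 for Ghr, -0.17 to 0.054 for Calr, -0.31 to 0.039 for Hspa5, -2.71 to 0.19 for Lcn2, -0.35 to 0.026 for Hp, -0.016 to 0.34 for Hpx and -0.17 to 0.15 for Fga. Rbfox2 had an adjusted p of 0.504 in edgeR and 1.99e-04 in DESeq2, at -1.82 by both. With the replicate number as a block, 335 genes had an unadjusted p under 0.05, 0 were called, and Serpina3n was at -0.56. The block changed no call. With 4 livers per genotype, edgeR rarely recovered a simulated log2 fold change of 1 (9 of 200 genes, against 82 with 24 false calls by DESeq2), and reads shared among Serpina1 copies limit what each copy's count can show.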

Other observations

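The genes whose log2 CPM most resembled each pattern over the 8 livers, after the genotype means were subtracted, were taken from all tested genes outside the clusters and lists. For the summed Serpina1 counts they were Tent2 (Pearson r = 0.988), Fam149b (0.954) and Hist1h2al (0.949). For the summed Serpina3 counts they were Plekhf1 (0.988), Psme2b (0.974) and Gm17828 (0.972). For Serpina3n they were Tmprss2 (0.984), Susd4 (0.979) and Dhcr7 (0.9748), the last an enzyme of cholesterol synthesis. These are the highest of 13856 genes over 8 livers that share their library scaling, and are given as a description.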
